A study of Brassica napus with 30 samples.

Results

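The start of chromosome C04 of oilseed rape (Brassica napus) was described through 200 gene models. They are the first 200, in the order of their IDs, whose ID begins with BnaC04G and which reached 0.531 CPM (counts per 1e6 counts of the library) in 3 or more of the 30 libraries. C04 holds 3290 gene models past that level, of which these are 6.08%, and 6183 in all. The whole table holds 100919 gene models, of which 57945 were past it and were tested. The first member is BnaC04G0000100ZS and the last BnaC04G0031200ZS, and members are numbered below by position, from 1 to 200. They lie among the first 312 IDs of C04. The other 112 IDs of that span missed the level, and 32 of them had no count in any library. Members were chosen by the CPM of the library ranked 3 from the top, which was 0.593 for the member just inside and 0.531 for the gene model just outside, which rounds to the limit but lies under it. The rule used the CPM values themselves, so that a member detected in one group only had to differ between groups. Of the 200, 159 passed in both genotypes on their own, 27 passed in JY1605 only, 12 in JY1621 only and 2 in neither alone. The stretch was also proposed with a genotype difference there already known, so that this difference is given as a description.

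The libraries were made from total RNA of seeds of 2 genotypes, JY1605 and JY1621, for which the labels give no allele or treatment beyond the name. Each genotype was taken as dry seeds, after 8 h of germination at 25 °C or 8 °C, and after 36 h at 25 °C or 8 °C, with 3 libraries in each of the 10 groups. Sampling fell at zeitgeber time 0 for dry seeds, 8 for seeds of 8 h and 12 for those of 36 h, and differences between sampling times and between times of day cannot be told apart. Per the labels each library stands for 100 seeds, and the replicates are called biological without word on seed lots, so that the p-values measure the spread between these libraries, which may be technical. Seeds hold several tissues, and fewer cells of a type cannot be told apart from less RNA per cell. The files do not pair the IDs with gene names and 0 of the IDs were found in the RefSeq gene table. No role is therefore given to any member, the seed label was not checked against marker genes, and sequences were not used here.

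Oilseed rape is an allotetraploid, with an A subgenome related to that of Brassica rapa and a C subgenome related to that of Brassica oleracea. Most of its genes have a close copy, the homoeologue, on the other subgenome, and short reads of similar copies are hard to tell apart. Lines of the species are known to differ in the presence and number of copies of single genes and of longer chromosome stretches; DNA was not measured here. A dry seed holds messenger RNA stored during maturation, and after water uptake (imbibition) much of it is degraded while new transcripts are made. Low temperature slows germination.

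Libraries held 14250480 to 78251632 counts. The deepest was replicate 1 of JY1621 at 36 h at 25 °C and the next held 35172867. All 30 libraries were closest to a library of their own group, with correlations across gene models of 0.988 to 0.995 within groups (log2(CPM + 1)), and no pair of replicates agreed within counting noise. The members covered the same range of levels as other gene models. Their mean over the 30 libraries had a median of 3.24 CPM and quartiles of 0.890 and 14.6, against 4.30 (1.11 and 14.4) over all tested. The lowest member stood at 0.0932 CPM and the highest at 4100. Members past the limit in all 30 libraries numbered 85, and 14 were past it in exactly 3.

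The first 31 members, which reach from the first to the 48th ID of C04, were mostly higher in JY1621 than in JY1605 in dry seeds and at both temperatures. The median log2 difference, JY1621 minus JY1605, was 3.26 in dry seeds, 2.84 at 8 h at 25 °C, 2.72 at 36 h at 25 °C, 3.79 at 8 h at 8 °C and 3.34 at 36 h at 8 °C. Over all gene models tested these medians lay between -0.13 and 0. With groups under 3 summed counts set to 3 counts, the medians of the first 31 members were 2.90, 2.77, 2.67, 3.67 and 3.25. The end at position 31 was chosen after the values were seen: it lies before the first 3 neighbours in a row of which none was above 0 in all 5 conditions. Of the 31, 28 had a difference above 0 in every condition, against 1 of the next 9 members and 19 of the 160 after those. The first 3 of those 9 fell short by the choice of the end. From position 32 to 200 the median difference was 0.05, 0.06, -0.12, 0 and 0.01 in the same order of conditions.

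**Figure D1:**
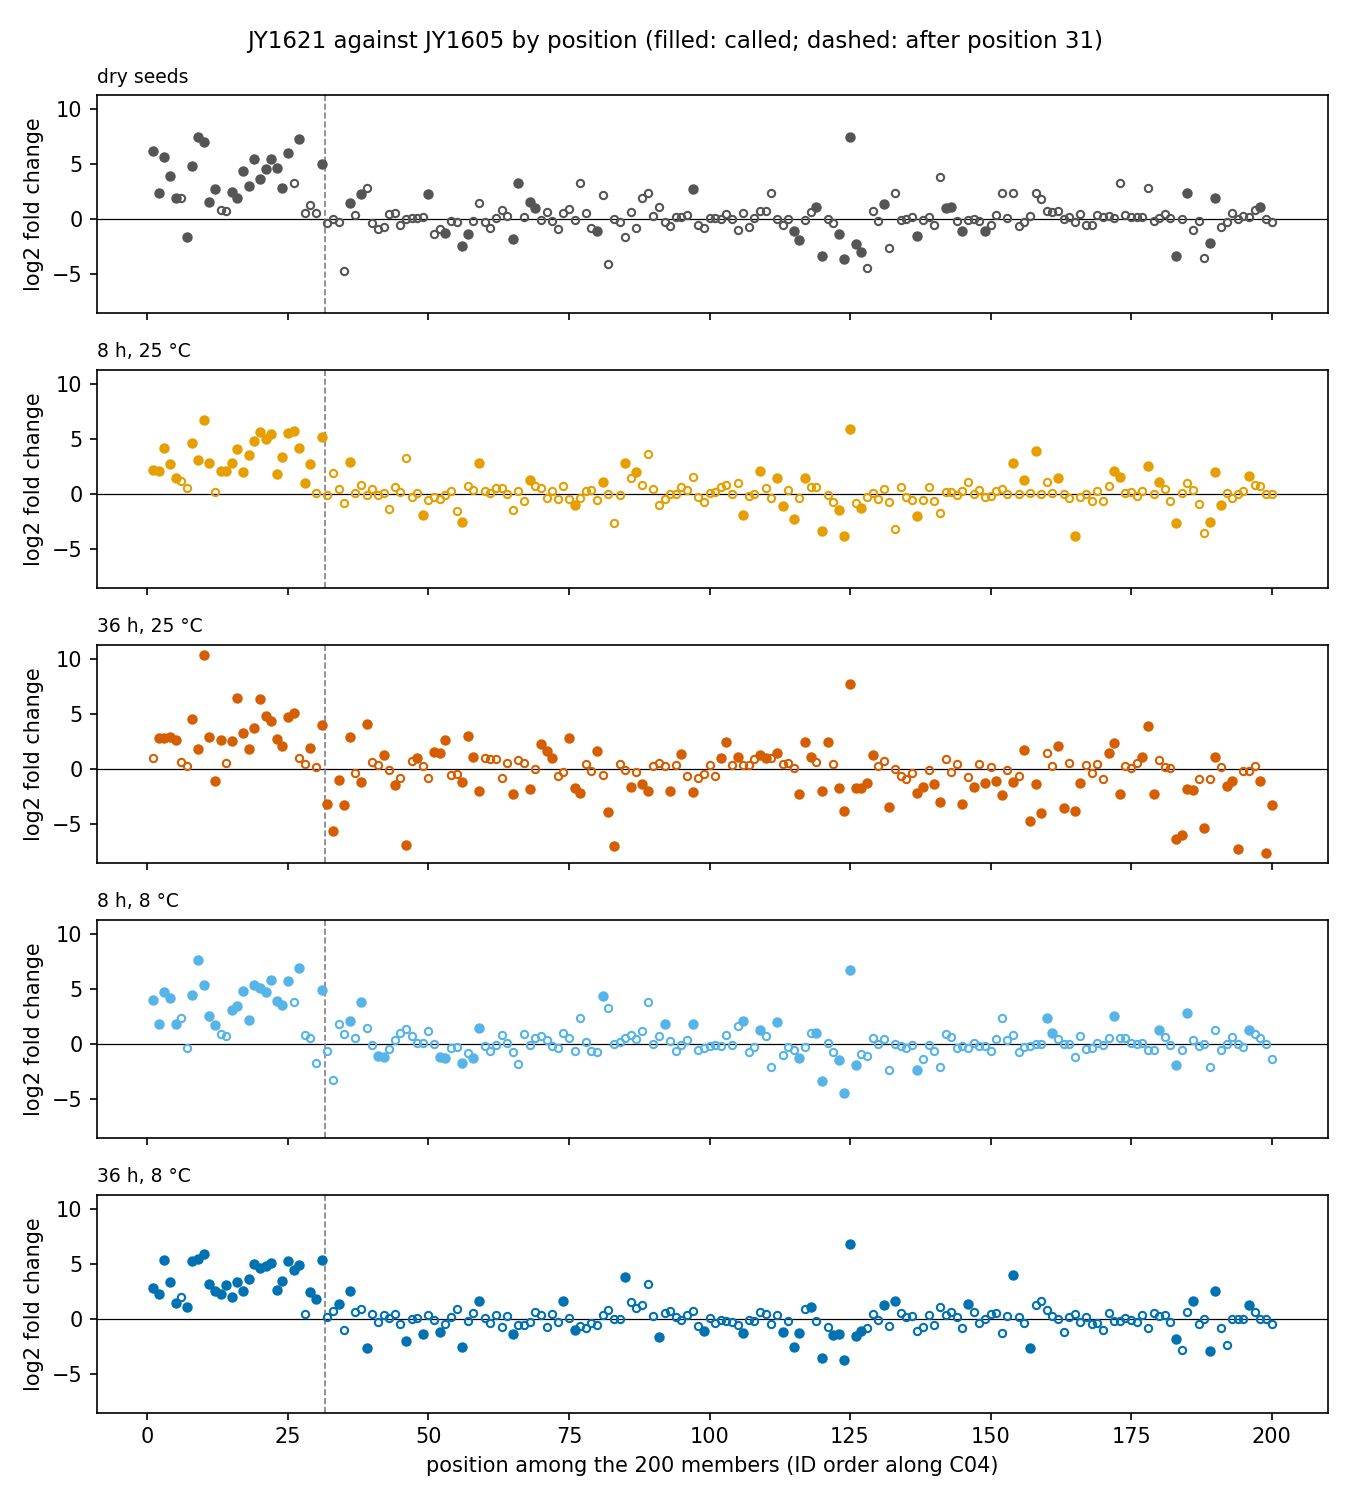
Log2 fold change of JY1621 against JY1605 (edgeR fit, 3 libraries per group) of each of the 200 members, in 5 panels for the 5 conditions, by position in ID order. Filled points were called and the dashed line follows position 31. The points left of the line lie mostly above 0 in each panel, with medians of 2.72 to 3.79, and those right of it scatter around 0, with the widest scatter at 36 h at 25 °C.

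Counts of calls are given over the same division. Its end was chosen from the same log2 differences, so that these counts had to follow it and are a description. A member was called where edgeR's quasi-likelihood test gave an adjusted p under 0.05 (Benjamini-Hochberg, 57945 gene models) and the log2 fold change was 1 or more in size. Of all 200 members, 38 were called higher and 18 lower in JY1621 in dry seeds, where 10.8% and 9.52% of all tested gene models were. At 8 h at 25 °C these were 47 and 15 (12.9% and 11.6% of all), and at 36 h at 25 °C 56 and 58 (21.1% and 27.0%). At 8 h at 8 °C they were 40 and 13 (12.1% and 8.89%), and at 36 h at 8 °C 43 and 22 (12.1% and 12.8%). Positions 1 to 31 held 23, 27, 23, 23 and 29 of the higher calls, in the order dry, 8 h 25 °C, 36 h 25 °C, 8 h 8 °C and 36 h 8 °C, and 1, 0, 1, 0 and 0 of the lower ones.

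Of these 31 members, 10 passed the CPM limit in JY1621 only and thus had to be lower in JY1605. Among the other 21, which passed in JY1605 on its own, 16, 19, 16, 16 and 20 were called higher in JY1621 in the 5 conditions and 14 in all of them. The 138 members of positions 32 to 200 that passed in both genotypes held 14, 18, 31, 16 and 14 higher and 12, 11, 32, 10 and 14 lower calls. Those shares, from 7.25% to 23.2%, lie near the background of the same conditions.

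Expression of the first 31 members was low in JY1605 but not absent. Summed over them, JY1605 dry seeds gave 23.3, 24.3 and 40.3 CPM in the 3 libraries, and JY1621 dry seeds 479, 471 and 491. At 8 h at 25 °C the sums were 38.2, 37.4 and 26.2 CPM in JY1605 and 463, 432 and 452 in JY1621. At 8 h at 8 °C they were 20.2, 28.4 and 23.0 CPM against 497, 507 and 515. In each of these conditions every JY1621 library lay more than 10 times above every JY1605 library. After 36 h at 25 °C they were 134, 87.9 and 104 CPM in JY1605 against 611, 625 and 639 in JY1621. In the cold at 36 h they were 22.0, 33.6 and 30.1 CPM against 429, 394 and 409. The JY1605 level was thus highest at 36 h at 25 °C, 108 ± 23.2 CPM (SD, n = 3), where the genotypes still did not overlap. There, position 12 alone gave 39.7 ± 15.3 CPM in JY1605, position 27 gave 13.4 ± 1.79 and position 29 gave 12.4 ± 12.

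**Figure D2:**
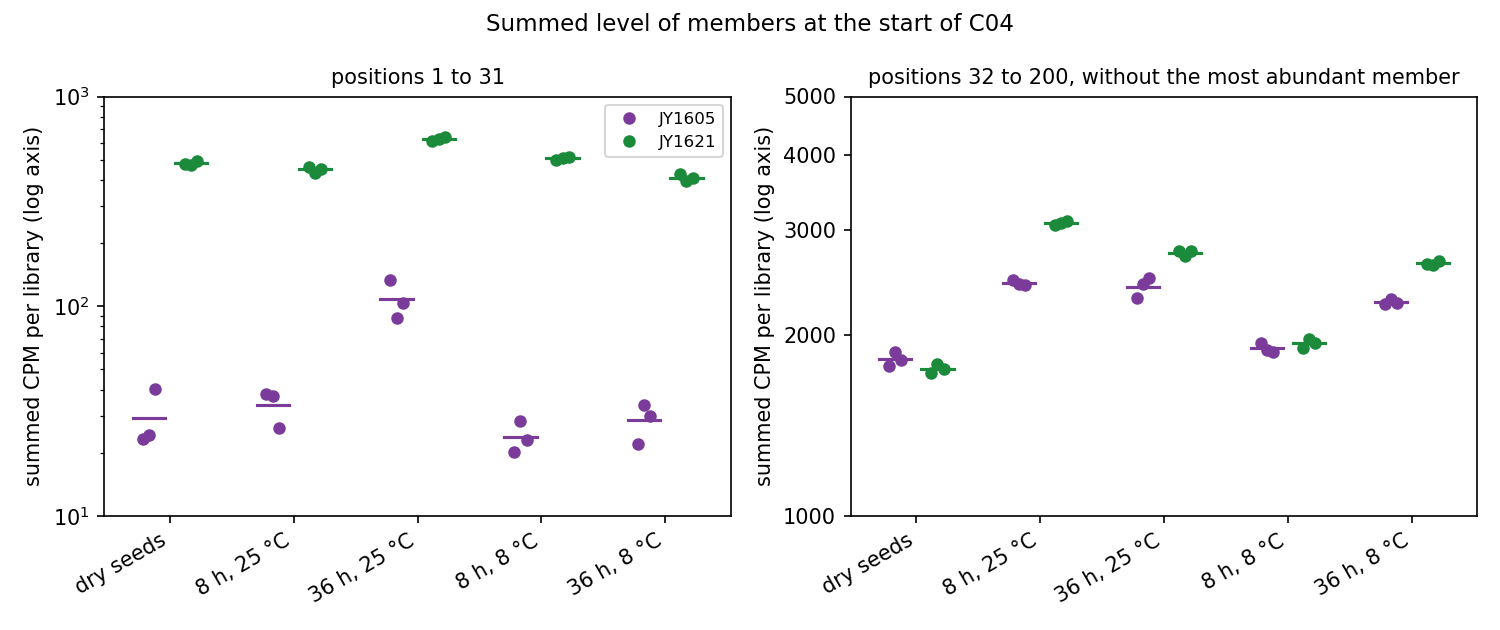
Summed CPM per library (points, log axis) with the mean of each group (bars), for JY1605 and JY1621 in the 5 conditions. Over positions 1 to 31 the JY1621 libraries stand at 394 to 639 CPM and the JY1605 libraries at 20.2 to 134. Over positions 32 to 200 without the most abundant member the genotypes stand close together, with JY1621 above JY1605 at 8 h 25 °C, 36 h 25 °C and 36 h 8 °C.

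A large part of the JY1621 sum came from position 22, BnaC04G0003500ZS, which was looked at after its values were seen. It stood at 295, 283 and 298 CPM in dry JY1621 seeds and at 1.78, 6.78 and 9.82 CPM in dry JY1605 seeds. At 36 h at 25 °C it stood at 195, 188 and 201 CPM in JY1621 and at 17.8, 6.51 and 4.46 in JY1605. In JY1621 it took 28.6% to 61.6% of the sum over the 31 members in each library. Without it the sums remained apart, at 189 ± 4.54 CPM in JY1621 and 23.2 ± 6.64 in JY1605 in dry seeds, and at 430 ± 12.5 and 98.8 ± 17.1 CPM at 36 h at 25 °C. For position 22 and for the full sum, the lowest dry JY1605 library was replicate 1. Replicate 1 was also the highest of JY1605 at 36 h at 25 °C. In the sum without position 22, replicate 2 was the lowest in dry JY1605 seeds, at 17.5 CPM.

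The genotypes were also apart in the median member. The median over the 31 members of the mean CPM of a group lay between 0.356 and 0.603 in the 5 JY1605 groups and between 2.69 and 7.23 in the JY1621 groups. Between 8 and 20 of the 31 reached 0.531 CPM in a JY1605 library, and between 25 and 30 in a JY1621 library. In dry JY1605 seeds 4 of the 31 had no count, and at 36 h at 25 °C each had one. No member of the 200 lacked counts in all JY1605 libraries.

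Within the stretch 20 members were called higher in JY1621 in all 5 conditions. Beyond it only positions 36 and 125 were, so that 22 of 200 were, against 3.06% of all gene models tested. Of the 20 in the stretch, 6 passed the CPM limit in JY1621 only and thus had to be lower in JY1605. Called lower in all 5 were positions 56, 120, 123, 124 and 183, against 3.51% of all tested. Of these, 3 passed the CPM limit in both genotypes. Positions 124 and 183 passed in JY1605 only and thus had to be lower in JY1621. By the plain values, 24 of the 31 members had all 3 JY1621 libraries above all 3 JY1605 libraries in every condition, and 9 of the other 169 did. This held for 6.29% of all tested gene models. Of the 24, 7 passed the CPM limit in JY1621 only, and 17 were among the 21 that passed in JY1605. The end of the stretch was chosen from the same differences, so that the 24 are a description. The reverse held for 8 of the 169, of which 5 passed in both genotypes, and for 5.60% of all tested.

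Some members inside the stretch went against the rest or were seldom called. Position 7 was lower in JY1621 in dry seeds, with a log2 fold change of -1.59, and higher by 1.13 at 36 h at 8 °C. Position 12 was higher in dry seeds (2.71) and lower at 36 h at 25 °C (-1.11), where it reached 18.1 ± 7.22 CPM in JY1621 and the 39.7 ± 15.3 CPM given above in JY1605. Position 6 was called in none of the 5 conditions, with values of 0.64 to 2.39, and position 28 at 8 h at 25 °C only. The 17 gene models between the members of the stretch that missed the limit were also counted. They held 268 counts in JY1605 and 378 in JY1621, or 0.803 and 1.04 CPM in all. Of the 13 with any count, 10 were higher in JY1621 when libraries were pooled. After position 31, 30 of the 67 such gene models with any count were. The same share over all gene models was not computed, and these are few counts.

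The log2 differences of the 31 members were related between conditions, about as much as those of all tested gene models. Across the 31 members, the log2 differences of 2 conditions correlated at 0.419 to 0.914 (Pearson, 10 pairs of conditions, no shared library). Across positions 32 to 200 these correlations were 0.254 to 0.618, and across all tested gene models 0.416 to 0.807. They are descriptions only, since gene models of one library share its depth and composition.

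Within the stretch the largest difference held in all conditions was that of position 10, BnaC04G0001500ZS. In JY1621 it had 3.58, 2.43 and 3.72 CPM in dry seeds, 56.4, 51.8 and 53.6 at 8 h at 25 °C, and 43.0, 29.9 and 46.1 at 36 h at 25 °C. In JY1605 it had 0.0595, 0 and 0 CPM in dry seeds, 0.771, 0.715 and 0.133 at 8 h at 25 °C, and 0, 0 and 0.0866 at 36 h at 25 °C. It thus rose after imbibition in JY1621, by a log2 fold change of 3.52 ± 0.22 (SE) at 8 h at 25 °C (edgeR, adjusted p = 4.4e-14). In the cold, JY1621 had 5.12, 7.07 and 3.67 CPM at 8 h and 19.1, 17.2 and 20.1 at 36 h, against at most 0.371 CPM in any JY1605 library of these times. The genotypes did not overlap in any condition. At 36 h at 25 °C the ratio of JY1621 to JY1605 was 1699 from 4800 against 2 counts (exact 95% interval 470 to 14032, counting error only), and in dry seeds it was 163 from 185 against 1 count (28.9 to 6464). It passed the CPM limit in JY1621 only, so that no test of the genotype difference is given.

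Further along, near position 120, single members with opposite genotype differences lay side by side. Position 125, BnaC04G0018300ZS, had the largest difference held in all 5 conditions among members higher in JY1621. It had 24.7, 27.5 and 29.9 CPM in dry JY1621 seeds and 0.0595, 0.221 and 0.140 in dry JY1605 seeds. After 36 h in the cold it had 241, 230 and 247 CPM against 1.28, 2.46 and 2.34. The lowest JY1621 library stood above every JY1605 library in each condition. The log2 difference was 7.45 ± 0.26 (SE) in dry seeds (edgeR, adjusted p = 3.4e-25), and in the other conditions it ran from 5.94 to 7.78. The 2 genotypes shared its course: it was lower at 8 °C than at 25 °C after 8 h, by a log2 fold change of -2.65 ± 0.32 in JY1605 and -1.82 ± 0.11 in JY1621, and higher after 36 h, by 2.62 ± 0.27 and 1.70 ± 0.10 (edgeR, all 4 adjusted p at most 1.6e-09).

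Its neighbour in ID order, position 124, BnaC04G0018200ZS, was the other way round. It had 4.64, 5.46 and 4.07 CPM in dry JY1605 seeds and 0.243, 0.995 and 0.0856 in dry JY1621 seeds. After 36 h at 25 °C it had 3.74, 2.90 and 3.68 CPM against 0.243, 0.115 and 0.253. The genotypes did not overlap in any condition, and the log2 difference ran from -4.45 to -3.65. It passed the CPM limit in JY1605 only, so that this difference is not tested. JY1605 means lay between 3.44 CPM at 36 h at 25 °C and 6.31 at 8 h at 8 °C. From dry seeds to 36 h at 25 °C it fell by a log2 change of -1.12 ± 0.27 (edgeR with TMM scaling, adjusted p = 0.00029). The fall in the CPM values above is smaller. Scaling by library size alone shifted the median over all tested by 0.65 (log2) in this comparison. The size of this fall, close to the minimum of 1 for a call, thus depends on the scaling.

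Position 120, BnaC04G0017800ZS, combined a genotype difference with a fall during germination. In JY1605 it had 27.9, 27.7 and 30.9 CPM in dry seeds and 1.85, 1.80 and 1.43 at 36 h at 25 °C. In JY1621 it had 2.37, 3.98 and 2.70 CPM in dry seeds and 0.447, 0.401 and 0.303 at 36 h at 25 °C. It was lower in JY1621 by a log2 difference of -3.37 ± 0.17 in dry seeds and of -1.96 ± 0.26 at 36 h at 25 °C (edgeR, adjusted p = 7.7e-21 and 9.4e-09). Of the other members lower in all 5 conditions, position 123 had 38.6 ± 3.88 CPM in JY1605 and 16.3 ± 1.40 in JY1621 dry seeds, and position 56 had 8.55 ± 0.811 and 1.64 ± 0.454. Position 183 had 14.9 ± 4.72 CPM in JY1605 at 36 h at 25 °C and at most 0.768 in any other group mean. It passed the CPM limit in JY1605 only, so that its genotype difference is given as a description. Position 36, the other member higher in all 5, had 26.1 ± 1.70 CPM in JY1621 and 3.59 ± 0.506 in JY1605 at 8 h at 25 °C.

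**Figure D3:**
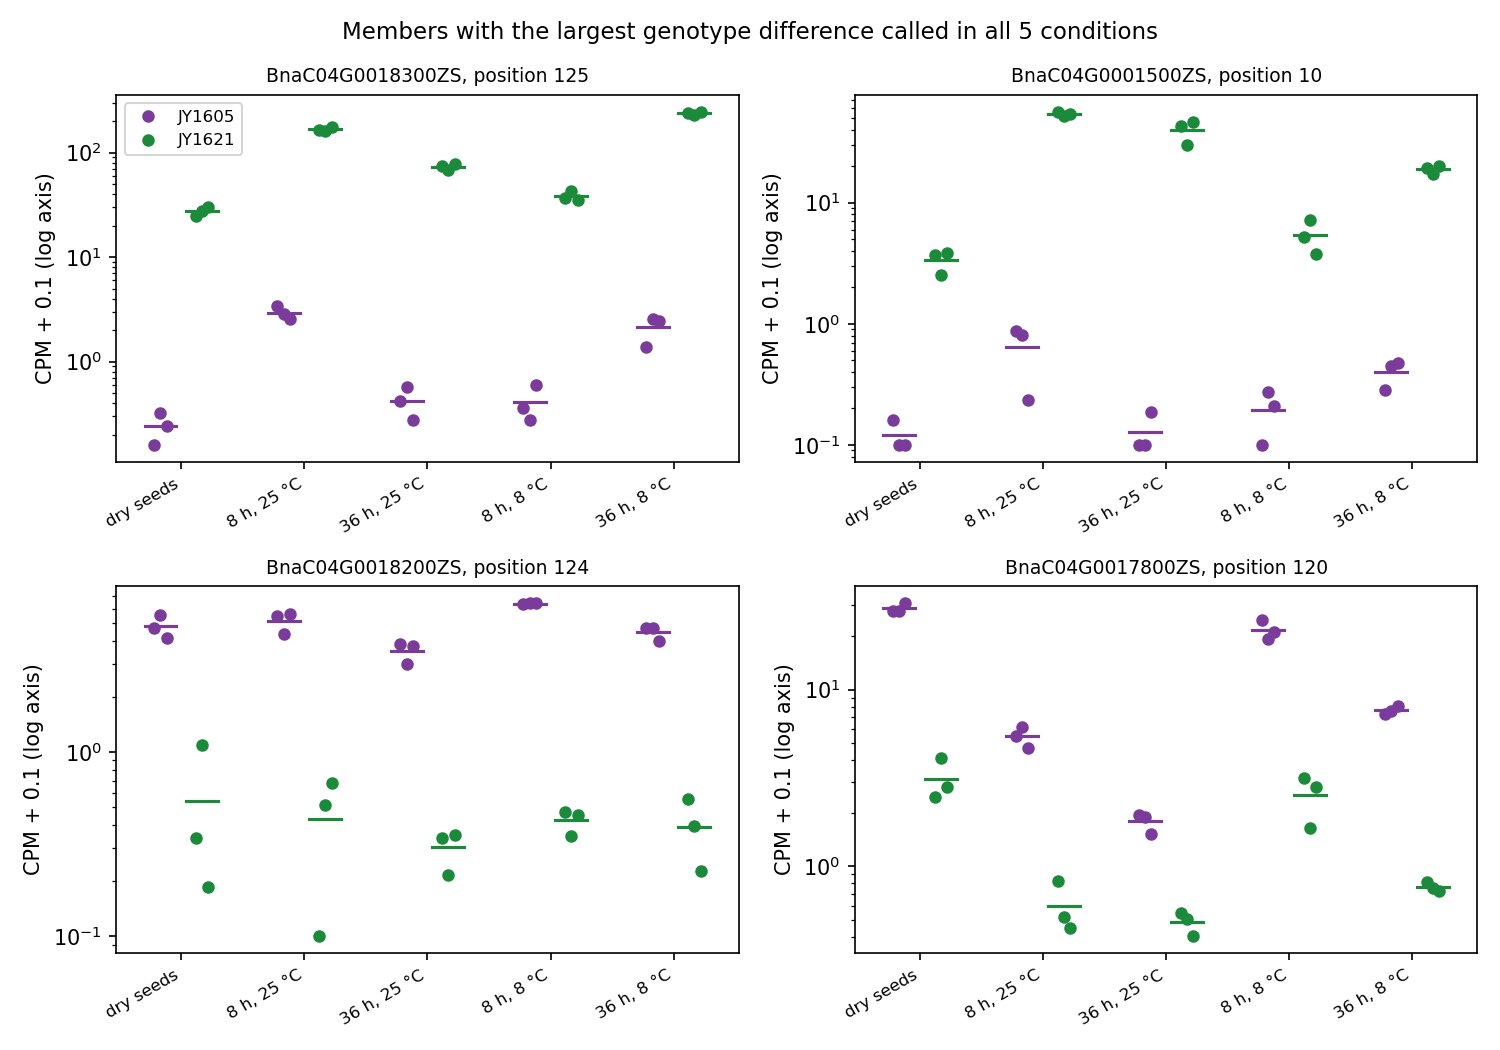
CPM + 0.1 per library (points, log axis) with group means (bars) of the 4 members with the largest genotype difference called in all 5 conditions, 2 in each direction. The libraries of JY1605 and JY1621 are apart in every condition for each of the 4, with JY1621 above for positions 125 and 10 and below for positions 124 and 120.

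Positions 32 to 200 held their most genotype calls at 36 h at 25 °C, as the whole table did. There 33 members were called higher and 57 lower in JY1621, or 19.5% and 33.7% of the 169, beside 21.1% and 27.0% of all tested and 16.8% and 27.8% of the remaining gene models of C04. The other conditions had 14 to 20 higher and 13 to 22 lower. In blocks of 20 members after position 40, the median difference of that condition ran from -1.12 at positions 181 to 200 to 0.78 at positions 101 to 120. In the last block 11 of 20 members were lower and 1 was higher, while its medians were 0 to 0.03 in the other 4 conditions. Counts of lower calls here are raised by the rule: 12 members passed the CPM limit in the libraries of JY1605 at 36 h at 25 °C alone, 4 of them in the last block. Among the 138 members of positions 32 to 200 that passed in both genotypes, the 31 higher and 32 lower calls were balanced at 22.5% and 23.2%, with a median of 0.26.

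The 2 members with no count in any JY1621 library belong to that group. BnaC04G0031000ZS, position 199, had 0.885, 1.24 and 1.47 CPM in JY1605 at 36 h at 25 °C, from 98 counts, and no count elsewhere. BnaC04G0030500ZS, position 194, had 1.05, 0.799 and 0.952 CPM there, from 75 counts, and no count elsewhere. Against a floor of 3 counts over the group, these were at least 46.1-fold and 35.3-fold higher in JY1605 than in JY1621. The last member, BnaC04G0031200ZS, was highest in the same group, with 2.37, 1.69 and 1.86 CPM, against 0.204, 0.172 and 0.152 in JY1621 at 36 h at 25 °C. The next gene model outside, BnaC04G0031600ZS, was detected throughout, at 1.04 to 3.49 CPM in the 30 libraries.

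**Figure D4:**
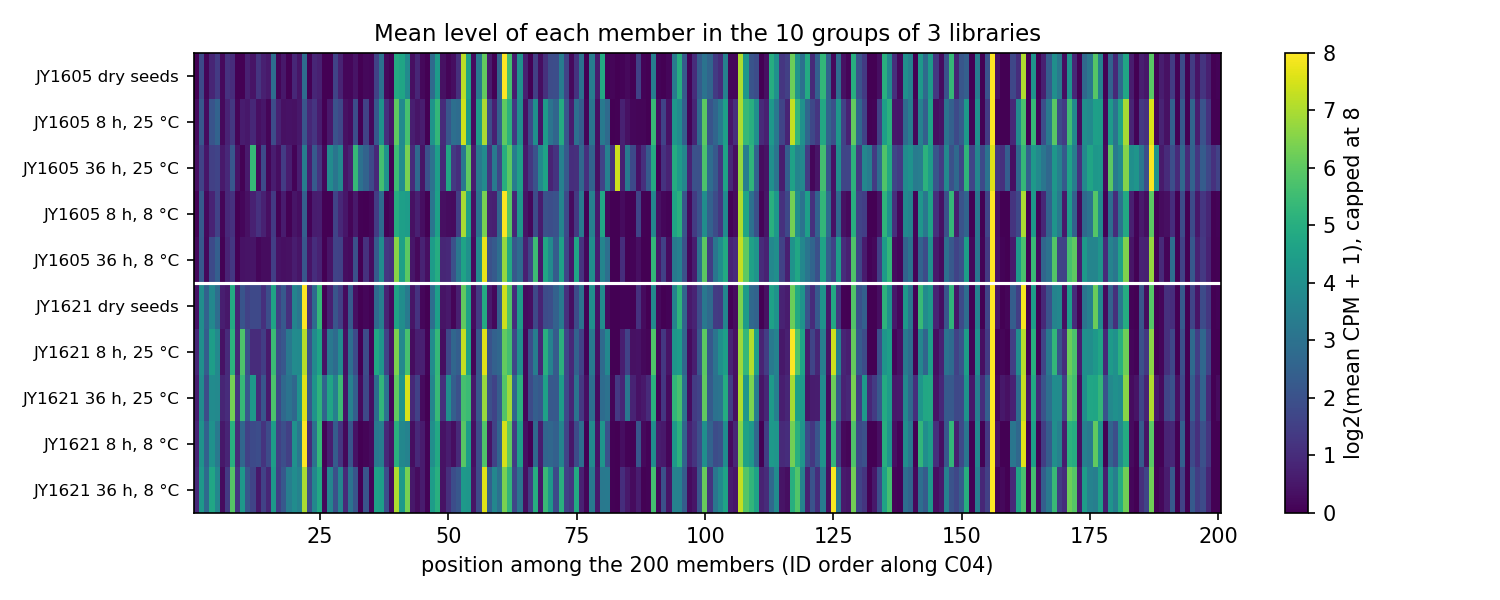
Mean level, log2(mean CPM + 1) capped at 8, of the 200 members (columns, by position) in the 10 groups of 3 libraries (rows, JY1605 above the white line and JY1621 below). The first 31 columns are darker in the JY1605 rows, and many columns light up in the row of JY1605 at 36 h at 25 °C, in which 167 to 173 members reached 0.531 CPM in a library.

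During germination at 25 °C more members rose than fell, and most of the calls were shared by the genotypes. At 36 h against dry seeds, 90 members were higher and 38 lower in JY1605, where 36.6% and 24.8% of all tested gene models were. In JY1621, 73 were higher and 30 lower (26.2% and 20% of all). Both genotypes shared 60 higher and 20 lower calls, where 20.1% and 14.6% of all tested gene models were shared, and 5 calls were opposite. The 12 members detected in JY1605 at 36 h at 25 °C alone had to be higher there. Among the 159 that passed in both genotypes, 63 were higher and 35 lower in JY1605 (39.6% and 22.0%), near the shares of all tested. In JY1621 these were 60 and 25 (37.7% and 15.7%).

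At 8 h against dry seeds, 46 members were higher and 41 lower in JY1605 (24.7% and 20.8% of all tested), and 58 and 35 in JY1621 (22.2% and 19.4%). The members' shares were 23.0% and 20.5%, and 29.0% and 17.5%. The balance of directions depended on the scaling. Scaled by library size alone, JY1605 had 84 higher and 21 lower calls at 8 h, where 40.9% and 10.8% of all tested were. At 36 h it had 114 and 26 (48.8% and 17.6% of all). JY1621 had 79 and 24 at 8 h (33.3% and 11.3%), and 97 and 18 at 36 h (37.9% and 11.7%). The median over all tested then shifted by 0.66 and 0.65 (log2) in JY1605 and by 0.49 and 0.49 in JY1621.

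The number of members at 0.531 CPM or more rose along with this, from 118, 114 and 119 in dry JY1605 seeds to 173, 172 and 167 at 36 h at 25 °C. In JY1621 it rose from 130, 129 and 129 to 157, 163 and 162. The group with the highest mean was that at 36 h at 25 °C for 103 of the 200 members in JY1605 and for 81 in JY1621, that is 51.5% and 40.5%, against 42.2% and 31.6% of all tested gene models. At positions 32 to 200, the median member reached 5.45 CPM in that JY1605 group and 1.40 in dry seeds, and 3.71 and 1.47 CPM in JY1621.

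The largest shared rise was that of position 83, BnaC04G0012400ZS. It had 120, 167 and 211 CPM in JY1605 and 0.728, 1.66 and 2.22 CPM in JY1621 at 36 h at 25 °C, and no count in dry seeds of either genotype. In the cold at 36 h it had 1 count in each genotype, in all 3 libraries together. The rise over dry seeds reached at least 2713-fold (JY1605) and 21-fold (JY1621), against a floor of 3 counts. JY1605 and JY1621 did not overlap at 36 h at 25 °C, with a log2 difference of -6.98 ± 0.33 (edgeR, adjusted p = 1.2e-09). Position 132, BnaC04G0020300ZS, followed the same pattern at a lower level, with 10, 8.70 and 9.65 CPM in JY1605 and 0.613, 0.917 and 1.06 in JY1621 at 36 h at 25 °C. In dry seeds it had 1 count in JY1605 and none in JY1621. Both members reached the CPM limit at 36 h at 25 °C only, so that they had to be higher there.

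The most abundant member was the one that fell furthest in both genotypes. Position 156, BnaC04G0025200ZS, took 10645, 10077 and 11176 CPM in dry JY1605 seeds and 9410, 10235 and 9139 in dry JY1621 seeds. After 36 h at 25 °C it had 196, 217 and 165 CPM in JY1605 and 584, 507 and 793 in JY1621. No imbibed library at 25 °C came near a dry one, and the log2 fold change was -6.44 ± 0.23 in JY1605 and -4.43 ± 0.21 in JY1621 (edgeR, adjusted p = 4.3e-17 and 1.6e-14). After 8 h in the cold it was still at 7815, 8532 and 8370 CPM in JY1605 and 7967, 7646 and 8209 in JY1621. At 25 °C it stood by then at 779, 735 and 602 CPM and at 1959, 1544 and 1377. The cold effect at 8 h was 4.11 ± 0.21 in JY1605 and 2.60 ± 0.19 in JY1621 on the log2 scale (edgeR, adjusted p = 5.6e-14 and 7.7e-11).

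Position 148, BnaC04G0023300ZS, also stood near its dry level after 8 h in the cold and well under it at 25 °C. It had 35.6, 45.6 and 37.9 CPM in dry JY1605 seeds and 40, 39.1 and 38.6 after 8 h in the cold. It had 3.85, 4.51 and 5.48 CPM after 8 h at 25 °C. In JY1621 the same groups had 38.0, 34.6 and 37.8, then 36.5, 37.4 and 41.6, then 6.20, 5.04 and 6.51 CPM. The fall to 36 h at 25 °C was -4.40 ± 0.13 in JY1605 and -3.77 ± 0.13 in JY1621 on the log2 scale (edgeR, adjusted p = 5.6e-30 and 1.1e-27). At 36 h the cold effect in JY1605 was 2.16 ± 0.19 for position 156, which was called, and 0.45 ± 0.15 for position 148, which was not. In JY1621 it was 0.02 ± 0.18 and -0.31 ± 0.15 in the same order, and neither was called. Position 61, BnaC04G0009200ZS, second in abundance, fell from 256, 277 and 269 CPM to 29.1, 32.3 and 32.0 in JY1605 and from 167, 154 and 176 CPM to 62.7, 55 and 54.8 in JY1621. Position 107, BnaC04G0016000ZS, next in abundance, was among the steadier members, at 76.0 to 161 CPM in the 30 libraries and with no call in any of the 15 comparisons.

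Cold against warm germination was compared at one sampling time and is free of the time of day. Cold and warm seeds of the same hour may be at different stages of germination. A response to temperature and a slower course of germination cannot be told apart here. After 8 h, 36 members were higher and 49 lower at 8 °C in JY1605, where 20% and 21.3% of all tested gene models were, and 32 and 48 in JY1621 (16.9% and 16.4% of all). Shared by the genotypes were 24 higher and 35 lower calls, with 1 opposite, where 10.8% and 11.8% of all gene models were shared. Scaled by library size alone, JY1605 had 21 higher and 77 lower (11.1% and 36.0% of all tested). JY1621 then had 25 and 63 (11.8% and 23.6% of all). The median over all tested then shifted by -0.56 and -0.24 (log2). Positions 1 to 31 held 4 higher and 5 lower calls in JY1605 (12.9% and 16.1% of the 31) and 5 and 6 in JY1621 (16.1% and 19.4%), near the shares of all tested in JY1621 and under them in JY1605.

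After 36 h, members lower in the cold prevailed. In JY1605, 50 were higher and 87 lower (28.7% and 32.7% of all tested), and in JY1621 23 and 60 (14.3% and 20.1%). Both genotypes shared 14 higher and 46 lower calls, where 10% and 15.9% of all gene models were shared, and 7 were opposite. The share of lower members was 43.5% and 30%. Members detected in JY1605 at 36 h at 25 °C alone had to be among them, and without those that passed in 1 genotype only, 36.5% and 27.7% of the 159 were lower. The warm seeds of this comparison are the same libraries as in the rise from dry seeds, so that the 2 results are not independent.

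The blocks of 20 differed in JY1605. After 36 h the median log2 change in the cold was -1.78 at positions 21 to 40, -1.66 at 81 to 100, -1.74 at 141 to 160 and -1.74 at 181 to 200. It was 0.68 at positions 41 to 60, 0.61 at 61 to 80 and 1.12 at 101 to 120. In JY1621 the same medians ran from -0.54 to 0.41 over the 10 blocks. Over all tested gene models the medians were -0.07 in JY1605 and -0.03 in JY1621. The 12 members past the CPM limit in JY1605 at 36 h at 25 °C alone had to be lower there in the cold, 4 of them at positions 181 to 200. Among the 159 members that passed in both genotypes the JY1605 median was -0.35. At positions 101 to 120, JY1605 had 11 higher and 2 lower calls (28.7% and 32.7% of all tested). JY1621 had 3 and 6 there (14.3% and 20.1% of all).

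The 2 members that rose most in the cold in both genotypes were positions 67 and 121. Position 67, BnaC04G0010400ZS, had 48.6, 47.0 and 36.4 CPM at 36 h at 8 °C and 2.46, 2.48 and 4.28 at 25 °C in JY1605. In JY1621 it had 33.8, 26.1 and 32.2 CPM in the cold and 4.55, 3.55 and 4.75 at 25 °C. The temperatures did not overlap in either genotype, and the log2 fold change was 3.96 ± 0.19 in JY1605 and 2.80 ± 0.18 in JY1621 (edgeR, adjusted p = 4.2e-20 and 6.0e-16). At 8 h the JY1605 cold libraries had 2.51, 2.92 and 2.17 CPM and the warm ones 16.5, 12 and 16.3, so that its order of temperatures in JY1605 was the reverse of that at 36 h. In JY1621 at 8 h it had 5.93, 7.13 and 3.79 CPM in the cold and 9.09, 8.38 and 11.1 at 25 °C, without overlap, a difference of -0.45 ± 0.19 (log2) that was under the minimum fold of a call. Position 121, BnaC04G0017900ZS, had 5.28, 5.37 and 4.86 CPM in the cold and 0.0805, 0.118 and 0.0866 at 25 °C in JY1605 at 36 h. In JY1621 it had 3.27, 2.80 and 3.33 against 0.562, 0.401 and 0.606 CPM.

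The 2 that fell most were position 83, given above, and position 188, BnaC04G0029600ZS. The latter had 9.86, 14.6 and 26.0 CPM in JY1605 and 0.192, 0.459 and 0.758 in JY1621 at 36 h at 25 °C, and no count in any of the 6 libraries at 36 h at 8 °C. It reached the CPM limit in 4 libraries of that time and temperature only, so that it had to be lower in the cold. It was at least 469-fold lower in the cold in JY1605 and at least 8.93-fold lower in JY1621, against a floor of 3 counts. The JY1621 call rests on 38 counts and was lost in the DESeq2 test, where the adjusted p was 0.088.

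Whether temperature acted differently in the genotypes was tested as the difference of the 2 temperature effects. At 8 h, 13 members had a higher and 9 a lower effect in JY1621 than in JY1605, where 6.93% and 5.91% of all tested gene models did. At 36 h these were 46 and 35 (19.8% and 20.8% of all). At 8 h the members' shares were 6.5% and 4.5%. By library size alone 19 were higher and 4 lower (11.2% and 2.84% of all tested). The median over all tested then shifted by 0.25 (log2). At 36 h the members' shares were 23.0% and 17.5%. The number of higher calls at 8 h fell to 8 without replicate 2 of JY1621 at 8 h at 8 °C. In the first 31 members 10 were higher and 3 lower at 36 h, and among the 21 that passed in JY1605 these were 5 and 2.

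The members with the largest such difference at 36 h were low in several groups. Position 33, BnaC04G0005000ZS, had 7.37, 6.33 and 6.80 CPM in JY1605 at 36 h at 25 °C and 1 count in all at 8 °C. In JY1621 it had 13 counts at 25 °C and 2 at 8 °C. The ratio of warm to cold was 582 in JY1605 (exact 95% interval 104 to 23010) and 4.58 in JY1621 (1.04 to 41.8), and the log2 difference between genotypes was 6.39 ± 2.19. Without replicate 1 of JY1621 at 36 h at 8 °C, which held those 2 counts, it was 4.05. The member passed the CPM limit in JY1605 at 36 h at 25 °C only, so that this difference is given as a description.

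Position 154, BnaC04G0024100ZS, had 2.90, 2.19 and 2.42 CPM at 25 °C and 0, 0 and 0.148 at 8 °C in JY1605. In JY1621 the temperatures overlapped, with 0.907, 1.38 and 0.909 against 0.739, 1.05 and 0.818 CPM. The log2 difference of the effects was 5.22 ± 0.78 (edgeR, adjusted p = 3.0e-07) and 8.42 without replicate 3 of JY1605 at 36 h at 8 °C. Position 178, BnaC04G0028300ZS, went the other way, with 0, 0.237 and 0.390 CPM at 25 °C and 2.53, 0.230 and 0.222 at 8 °C in JY1605. In JY1621 it had 3.18, 2.29 and 3.74 CPM at 25 °C and 0.256, 0.955 and 0.566 at 8 °C. The difference was -4.78 ± 1.02, and it was -2.61 without replicate 1 of JY1605 at 36 h at 8 °C, the one high library of its group. It passed the limit in JY1621 only, since 1 JY1605 library alone reached it, and no test is given. Position 10, likewise past the limit in JY1621 only, had a difference of -4.48 ± 1.00. In JY1605 that value rests on 2 counts at 25 °C and 25 at 8 °C, and it was -6.80 without the library at 25 °C that holds the 2 counts.

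The start of C04 was set beside the starts of the other 18 chromosomes, with members chosen there by the same rule. Over the first 40 gene models of C04 the median log2 difference between genotypes was 2.46 to 2.83 in the 5 conditions, and 25 to 31 of the 40 were called higher in JY1621. On A02 it was 2.41 to 3.53, with 19 to 24 called higher, and on C02 -2.57 to -1.46, with 23 to 39 called lower. On the other 16 chromosomes the medians lay between -1.05 and 0.95. Over the first 200 gene models the C04 median was 0.09 to 0.27, against 0.93 to 1.10 on A02 and -3.42 to -3.0 on C02, so that the shift at C04 covered a shorter run of IDs than at these 2. Over the remaining 3090 gene models of C04 past the limit the medians were -0.22 to 0.05.

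**Figure D5:**
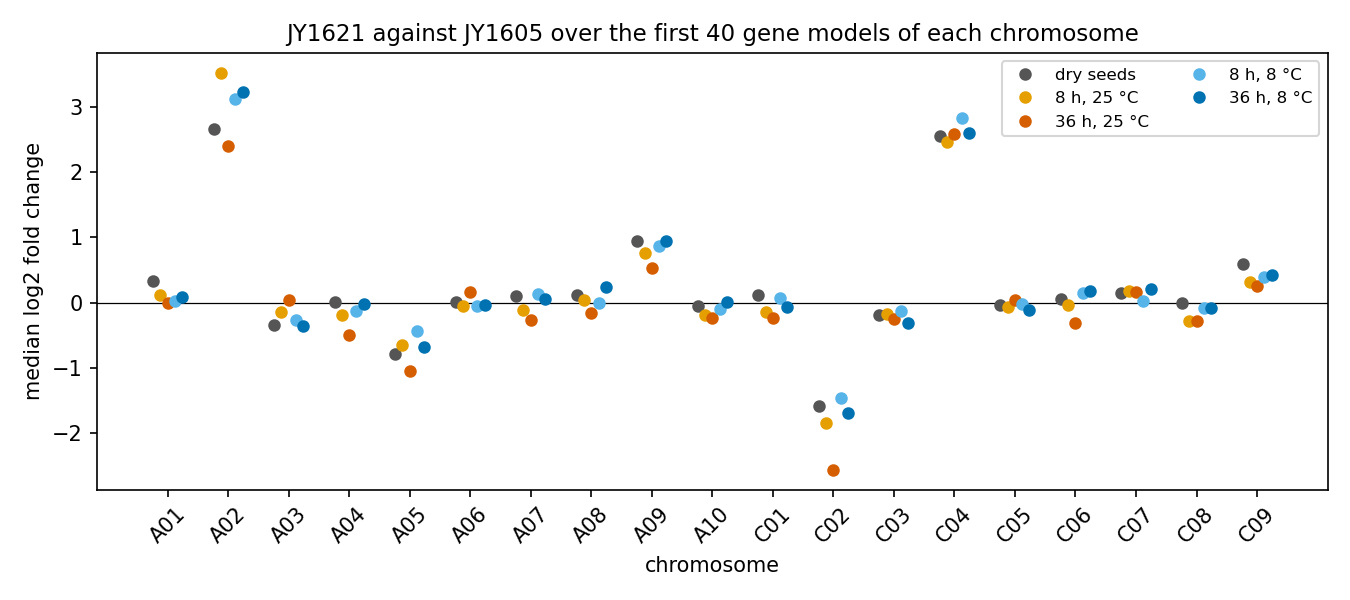
Median log2 fold change of JY1621 against JY1605 over the first 40 gene models past the CPM limit on each of the 19 chromosomes, one point per condition. C04 stands at 2.46 to 2.83 and A02 at 2.41 to 3.53, C02 at -2.57 to -1.46, and the other 16 lie between -1.05 and 0.95.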

How the data were processed

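RNA of seeds was sequenced in 30 libraries, 3 in each of 10 groups. Per the submitters' processing notes the tools were HISAT2 2.2.1, featureCounts 2.0.6 and DESeq2 1.42.0. The deposited values are raw counts per gene model made by the authors, in whole numbers. What genome build, strand setting and handling of multiply matching reads were used was not given in the sources used here. Reads of near-identical homoeologues and overlapping genes may thus be split or lost. CPM were computed as counts over the library total. Totals ran from 14250480 to 78251632 counts, and intervals and floors cover counting error only.

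All 30 libraries were fitted together in edgeR 4.0.16 (R 4.3.3; filterByExpr with a minimum count of 10 and a minimum total of 15, TMM scaling, robust quasi-likelihood) and 15 comparisons were tested over 57945 gene models. A call needed a Benjamini-Hochberg adjusted p under 0.05 and a log2 fold change of 1 or more in size. On simulated counts for JY1621 against JY1605 at 8 h and 25 °C over these 57945 gene models, the fit recovered 95% of 100 seeded at a log2 change of 1.5 and 100% of 100 at 3, and called 3 others. Only gene models above 1 CPM were seeded, and all others had equal means in all groups. The recovery thus does not cover the 53 of 200 members under 1 CPM. The simulated spread followed the trend with level alone, without a spread of each gene model's own. Recovery and other calls may therefore be worse in the real libraries. Descriptions used Python 3.11.15 with pandas 2.3.3 and scipy 1.17.1, and figures matplotlib 3.10.9.

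The stretch, its members and the gene lists were chosen with earlier results of these data known. Members named by ID are the first, the last and the next one outside, the 3 most abundant, and, among members called alike in all conditions or both genotypes and averaging 1 CPM or more, the 2 with the largest change per direction for genotype, temperature at 36 h, its difference between genotypes, and 36 h at 25 °C against dry seeds. The 2 most abundant without counts in one genotype were added. BnaC04G0003500ZS was chosen after its values were seen. Alternatives were DESeq2 1.42.0, other scalings, other filters and fold minimums, fits of fewer groups, other block sizes, floors of 3 counts, a replicate block and leaving out each library.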

Additional observations from a re-analysis of the deposited data

Results flagged for a closer look

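The difference between genotypes in the effect of 8 °C against 25 °C, JY1621 minus JY1605, passed the threshold of edgeR's interaction test for these members named by ID. At 8 h it was -1.51 (log2) for BnaC04G0025200ZS, the most abundant member, and 1.54 for BnaC04G0010400ZS. At 36 h it was -2.14 for BnaC04G0025200ZS and -1.16 for BnaC04G0010400ZS. It was also negative for BnaC04G0009200ZS (-1.33), BnaC04G0017800ZS (-1.56) and BnaC04G0017900ZS (-3.24). It was positive for BnaC04G0024100ZS (5.22) and BnaC04G0020300ZS (2.86). The latter reached the CPM limit at 36 h at 25 °C only. At 36 h at 8 °C it had 5 counts in JY1605 and 3 in JY1621, so that its difference is given as a description. Another 4 members passed the CPM limit in 1 genotype only, so that their differences at 36 h are given as descriptions: -4.48 for BnaC04G0001500ZS, -4.78 for BnaC04G0028300ZS, 1.76 for BnaC04G0000100ZS and 6.39 for BnaC04G0005000ZS. The last was 4.05 without replicate 1 of JY1621 at 36 h and 8 °C. Groups of 3 libraries were not searched for single libraries far from the others.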

How the results depend on the processing

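Counts of called members stayed within 1.5 times the reported ones in 423 of 444 recomputed values, calls of members named by ID stayed in 526 of 528, and the medians by position moved in 34 and changed sign in 1 of 215. Without a minimum fold, calls by genotype were 32 lower in dry seeds, 72 higher and 29 lower at 8 h 25 °C, 88 higher at 36 h 25 °C, 63 and 32 at 8 h 8 °C, and 71 and 40 at 36 h 8 °C. Likewise 49 were higher in the cold at 36 h in JY1621, 24 and 24 differed in the cold effect at 8 h, 60 were lower in it at 36 h, 74 rose by 8 h at 25 °C in JY1605 and 47 fell by 36 h at 25 °C in JY1621. The share of all tested gene models called without a minimum fold was not computed. These counts thus show the effect of the setting only and tell nothing particular about the members. With library size scaling only, the cold at 8 h gave 21 higher and 77 lower in JY1605 (11.1% and 36.0% of all tested). Its difference between genotypes gave 4 lower (2.84% of all). For 8 h at 25 °C against dry, JY1605 had 84 higher and 21 lower (40.9% and 10.8%). For 36 h at 25 °C against dry, JY1621 had 18 lower (11.7%). That scaling also moved the median of all tested by 0.19 (log2) for genotype at 8 h 8 °C, -0.10 for the cold at 36 h in JY1605 and 0.11 for its difference between genotypes. The causes were not tested.

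Medians of the genotype difference are reported in blocks of 20. Library size scaling only gave 3.5 and 2.13 for positions 1 to 20 and 21 to 40 at 8 h 8 °C. In blocks of 10, positions 1 to 10 and 11 to 20 had 4.34 and 2.57 in dry seeds and 4.09 and 2.83 at 8 h 8 °C. Positions 21 to 30 had 3.91 (dry), 3.76 (8 h 25 °C), 2.43 (36 h 25 °C), 3.84 (8 h 8 °C) and 3.95 (36 h 8 °C). Positions 31 to 40 had 0.19, 0.45, -0.68, 1.20 and 0.69 in that order, so that at 36 h 25 °C the sign changed, from 1.43 over positions 21 to 40. With groups under 3 summed counts set to 3, positions 21 to 40 had 1.47, 1.37, 1.04, 1.46 and 1.83, and at 8 h 8 °C positions 1 to 20 had 3.52 and 41 to 200 had 0.20. DESeq2 gave 1.52 (dry) and 1.48 (8 h 25 °C) for positions 21 to 40.

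Leaving out each library in turn, positions 21 to 40 ranged from 1.62 to 2.27 in dry seeds, 1.31 to 2.27 at 8 h 25 °C and 1.70 to 2.57 at 8 h 8 °C, and positions 1 to 20 from 3.04 to 3.27 at 36 h 8 °C. Higher calls of the difference in the cold effect at 8 h ranged from 8 to 12, the lowest without replicate 2 of JY1621 at 8 h 8 °C. The difference in the cold effect at 36 h of BnaC04G0005000ZS lost its call, at 4.05, without replicate 1 of JY1621 at 36 h 8 °C, and BnaC04G0029600ZS in the cold at 36 h in JY1621 by DESeq2, at -6.07 (adjusted p = 0.088).

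Replicate numbers do not pair the libraries: deviations from the group means of same-numbered libraries correlated at -0.13 to 0.21, with a median of 0.00674 over 135 pairs. With the number as a replicate block, genotype calls were 37 higher and 19 lower in dry seeds, 45 and 14 at 8 h 25 °C, 56 and 58 at 36 h 25 °C, 40 and 14 at 8 h 8 °C and 43 and 21 at 36 h 8 °C, and all counts stayed within 1.5 times. Members under 1 CPM, 53 of 200, rest on few counts per library.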

Other observations

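Other chromosome starts gave smaller values in one direction over all 5 conditions. On A05 the median log2 difference of the first 40 gene models past the CPM limit, JY1621 minus JY1605, was -0.80 in dry seeds, -0.65 and -1.05 after 8 h and 36 h at 25 °C, and -0.44 and -0.68 after 8 h and 36 h at 8 °C. On A09 it was 0.95, 0.76, 0.53, 0.87 and 0.95 in the same order, while over the first 200 gene models of A09 it was -0.39, -0.62, -0.96, -0.41 and -0.40. The 95 gene models among positions 32 to 200 of C04 that missed the CPM limit held 854 counts in JY1605 and 856 in JY1621.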
